A study of Mus musculus with 12 samples.

Results

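Tau, the microtubule-associated proteins around it and the kinases that phosphorylate it were followed through 12 mouse brain arrays. The 10 genes were Mapt (tau), Map2, Map1a, Map1b, Map4, Stmn1, Gsk3b, Cdk5, Cdk5r1 and Fyn, and they were found through the transcript accession that each array probe carries. They were read by 19 of the 36520 probes that passed the filter on background, and these 36520 probes covered 19648 named genes together with probes that had no symbol here. All 19 member probes passed that filter and were well above background on all 12 arrays. Mapt and Gsk3b had 3 probes each, Map2, Map1a, Map1b, Stmn1 and Cdk5r1 had 2, and Map4, Cdk5 and Fyn had 1, and all probes of a gene carried the same transcript accession.

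Microtubules are hollow polymers of alpha- and beta-tubulin that stiffen neurites and carry axonal transport. Tau binds along them mainly in axons, MAP2 mainly in dendrites and the cell body, MAP1A in mature and MAP1B in growing neurons, and MAP4 in many cell types, whereas stathmin (Stmn1) binds free tubulin and favours depolymerisation. Phosphorylation by GSK-3β, by CDK5 with its activator p35 (Cdk5r1) and by the tyrosine kinase FYN loosens or alters tau binding, and hyperphosphorylated tau forms the neurofibrillary tangles of Alzheimer's disease.

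Prefrontal cortex was held on 4 arrays, from C57BL/6 mice aged 1.5, 4, 17 or 22 months. Another 3 held hippocampus of C57BL/6 transgenic mice, namely NCSTN mice with a mutated human NCSTN gene (10 months), MAPT mice with the wild-type human MAPT gene (12 months) and 5xFAD mice, a transgenic model of amyloid deposition (6 months). The last 5 held hippocampus of outbred ICR mice aged 7 weeks, given intracerebroventricular Aβ at 5 or 10 µM, intracerebroventricular streptozotocin at 2.5 or 3 mg/kg, or intraperitoneal scopolamine at 1 mg/kg. Brains were taken 14 days after the intracerebroventricular injections and 30 minutes after scopolamine. Each array measured an equal pool of RNA from 3 animals, so every group had 1 array, no untreated or wild-type hippocampus array was analysed here, and no test between groups was possible. The promoters that drive the transgenes were not given in the sources used here.

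Values are quantile-normalised log2 signals, and a difference of 1 is a 2-fold change. A difference past 1.5-fold (0.58 on the log2 scale) was counted as a call, with no replicate check. The only error available for a single value was the one assigned by the scanner software, 0.14 on the log2 scale for a member probe, which covers measurement on that array and not the spread between animals. Levels of different probes were not set against each other, because probes differ in brightness for reasons unrelated to transcript number, and in whole tissue fewer cells of a type and less RNA per cell cannot be told apart.

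The arrays carried between 63.5% and 75.8% of their probes well above background. Markers of cortex were past 1.5-fold higher in the cortex arrays than in both hippocampal sets for 6 of 7 genes, and hippocampal markers were past 1.5-fold lower there for 6 of 8. The 3 transgenic arrays went against the methods, which describe male mice: Xist probes read 8.58 to 10.45 on them and were not above background on the other 9 arrays, whereas Ddx3y showed the opposite. This difference is shared by all 3 transgenic arrays and so lies between them and the other sets, not among them.

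Mapt, whose human counterpart is the transgene of the MAPT mice, was read by 3 probes. Probe A_55_P1954486 read 14.99, 15.07, 14.86 and 15.09 in cortex at 1.5, 4, 17 and 22 months, then 14.91 in NCSTN, 15.03 in MAPT and 15.26 in 5xFAD hippocampus. In ICR hippocampus it read 14.98 and 15.01 with 5 and 10 µM Aβ, 15.05 and 15.13 with 2.5 and 3 mg/kg streptozotocin, and 15.04 with scopolamine. The 12 arrays thus spanned 0.40 on the log2 scale, and no step between neighbours in the order of levels exceeded 0.14, the software's own error.

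The second Mapt probe, A_55_P2100149, behaved in much the same way. It read 14.87, 14.95, 14.72 and 15.07 in cortex by age and 14.85, 14.87 and 15.12 in NCSTN, MAPT and 5xFAD hippocampus. In the ICR arrays it read 15.02 and 15.08 with Aβ, 15.17 and 15.22 with streptozotocin and 15.03 with scopolamine. Its span was 0.50 with steps of at most 0.13, and over the 12 arrays, each taken relative to the mean of its own strain and region, it correlated with the first probe at r = 0.92 (0.89 without the 5xFAD array).

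The third Mapt probe, A_55_P2100155, was the one that departed. It read 14.08, 14.11, 14.00 and 14.22 in cortex and 14.15, 14.22 and 13.87 in NCSTN, MAPT and 5xFAD hippocampus, which is a span like that of the others. Among ICR mice it read 14.15 with 5 µM Aβ, 14.02 with scopolamine, 13.32 with 10 µM Aβ, 13.21 with 2.5 mg/kg streptozotocin and 12.76 with 3 mg/kg streptozotocin. In ICR hippocampus 3 of the 5 arrays therefore lay below every C57BL/6 array, and the rest lay among them, while the first 2 probes moved by no more than 0.20 across the same 5 arrays.

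**Figure D1:**
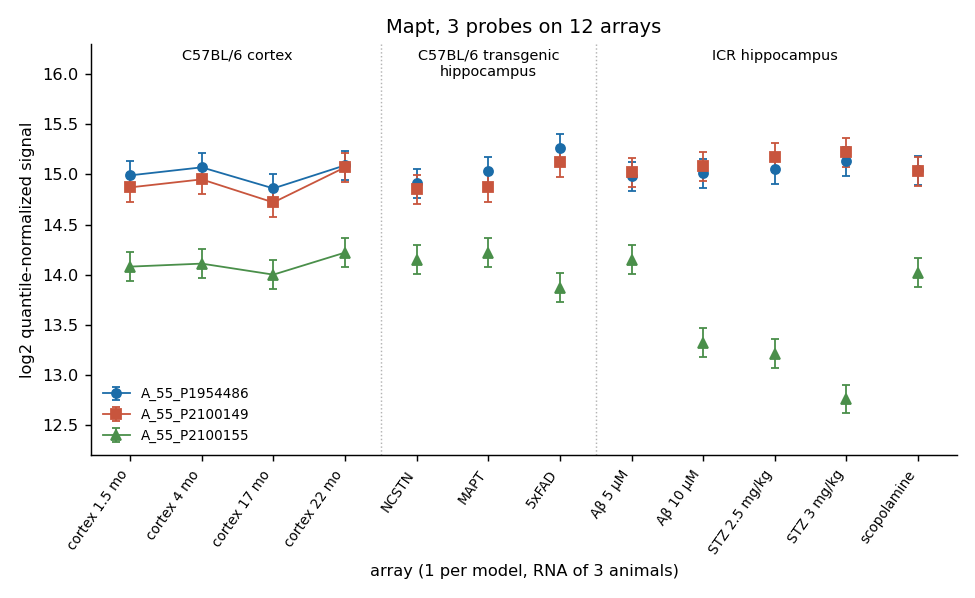
Log2 signal (y axis) of the 3 Mapt probes on the 12 arrays (x axis), with bars for the scanner software's error and lines joining only the cortex ages. The other probes stay within 0.50 throughout, and A_55_P2100155 drops to 13.32, 13.21 and 12.76 on 3 of the 5 ICR arrays.

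In the MAPT mouse itself, none of the 3 Mapt probes stood out. Relative to the mean of the NCSTN and 5xFAD arrays they differed by -0.06, -0.12 and 0.21, and relative to the NCSTN array alone by 0.11, 0.02 and 0.07. The array's Mapt probes were designed for the mouse transcript, and whether they read the human transgene was not tested, so they do not check the genotype.

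No member probe passed 1.5-fold in the MAPT array against the mean of the NCSTN and 5xFAD arrays (0 of 19, against 15.7% of all probes and 4.97% of bright ones). Of the 19 differences 10 were above and 9 below 0, 14 were smaller than their software error of 0.18, and the median size was 0.12, against 0.21 over all probes and 0.16 over the 11681 probes at least as bright as the dimmest member. The 2 largest were Map2 probe A_55_P2059307 at 0.48 and Gsk3b probe A_55_P1981415 at 0.46. The first of these rested on the 5xFAD array, since the MAPT array differed by 1.23 from 5xFAD and by -0.27 from NCSTN for this probe.

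Set against the NCSTN array alone, the MAPT array had 0 of 19 member probes past 1.5-fold (13.1% of all probes), with 17 of 19 differences inside the software error of 0.20. Against the 5xFAD array it had 2 of 19 (31.3% of all probes), namely the Map2 and Gsk3b probes just named, with Gsk3b 0.61 higher in MAPT. Both comparisons share the MAPT array. Most bright probes also stayed short of 1.5-fold against NCSTN. There the median size was 0.07 over the members, 0.10 over bright probes and 0.16 over all. Against 5xFAD the median size was 0.28 over the members, 0.28 over bright probes and 0.35 over all.

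The widest difference of any member among the transgenic mice was in Map2, the dendritic microtubule protein. Probe A_55_P2059307 read 12.33 in NCSTN, 12.07 in MAPT and 10.84 in 5xFAD hippocampus, which is 2.82-fold lower in 5xFAD than in NCSTN (log2 difference -1.50, software error 0.20). The 5xFAD value was the lowest of all 12 arrays, 1.02 below the next. The other Map2 probe, A_52_P22763, read 13.35, 13.28 and 13.31 on the same 3 arrays and differed by -0.03, so the gap between the 2 probes of the gene was 1.46.

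That Map2 probe was the only one of 19 past 1.5-fold between 5xFAD and NCSTN, against 33.4% of all probes and 19.7% of the equally bright ones. Of the 19 differences 12 were below 0, with a median of -0.17 beside -0.04 for all probes, and the median size of 0.32 compares with 0.37 over all and 0.28 over bright probes. The 5xFAD array gave the lowest of the 3 transgenic values for 10 of 19 member probes, and it did so for 44.8% of all probes.

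Among the other structural proteins, Map1b probe A_52_P360330 came nearest to the threshold, at 11.70 in NCSTN, 11.51 in MAPT and 11.14 in 5xFAD. Its 5xFAD minus NCSTN difference was -0.56, and the other Map1b probe differed by 0.07. Map1a, which encodes the adult MAP1 protein, was higher in 5xFAD by one probe (0.49) and lower by the other (-0.32). The single Map4 probe differed by -0.17, and the Stmn1 probes by -0.07 and -0.36.

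The tau kinases split in the same manner between 5xFAD and NCSTN. Gsk3b, which encodes a kinase also known as tau protein kinase I, differed by -0.34 and -0.30 for 2 probes and by 0.36 for the third. Cdk5r1, the neuronal activator of CDK5, differed by -0.33 and -0.34 for its 2 probes and was the only gene with more than 1 probe whose probes all shifted one way by more than the software error. Cdk5 itself differed by 0.12 and Fyn by 0.23.

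Markers of other cell types moved with the 5xFAD array, where 13.8% of all genes were past 1.5-fold higher than in NCSTN and 15% lower. Microglial markers were past 1.5-fold higher for 4 of 7 genes with a median of 1.28, and their summed level was 15.77 in 5xFAD against 13.71 in NCSTN and 13.72 in MAPT. Astrocyte markers were higher for 3 of 7 (summed 16.36 against 15.69). The neuronal list, summed at 18.66 against 18.31, had 2 of 10 higher, namely Thy1 (17.41 against 16.56) and Nefm (11.87 against 11.21). Thy1 had the highest value of this list on both arrays, so it weighed most in the sum. The rest of the list stayed short of 1.5-fold and went both ways. Eno2 (15.96 against 15.56), Slc17a7 (12.1 against 11.76) and Nefl (14.81 against 14.77) were higher in 5xFAD. Gad1 (12.59 against 13.13), Gad2 (12.02 against 12.54) and Rbfox3 (12.81 against 12.98) were lower. Snap25 (15.59 against 15.61) and Syt1 (16.13 against 16.14) were nearly level. Genes that mark cortex were lower for 4 of 7 with a median of -0.59 (summed 11.52 against 12.14). Oligodendrocyte markers had 2 of 7 higher with a median of 0.53 (summed 17.56 against 16.98), and markers of newborn neurons 2 of 7 lower with a median of -0.55 (summed 13.42 against 13.78). The part of these lists in the Map2, Map1b, Stmn1 and Cdk5r1 differences was not tested.

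Among the injected ICR mice, the member genes differed less, apart from the third Mapt probe. Between the 2 Aβ arrays and the 2 streptozotocin arrays 1 of 19 probes passed 1.5-fold, against 15.8% of all probes and 3.05% of the bright ones. This was Mapt probe A_55_P2100155, 1.69-fold higher with Aβ (log2 difference 0.76, software error 0.14). The 2 Aβ values, 14.15 and 13.32, lay farther apart than the 2 pairs did, and without the 5 µM Aβ array the difference fell to 0.34. Without the 3 mg/kg streptozotocin array it was 0.53.

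The remaining 18 differences between Aβ and streptozotocin ran from -0.34 for Map1a probe A_66_P140452 to 0.10 for the other Map1a probe. In all 15 of the 19 were below 0, and the median was -0.09 beside -0.04 for all probes. The 2 pairs of arrays did not overlap for 8 of 19 member probes, as for 44.2% of all probes. Cdk5r1 differed by -0.18 and -0.26, Gsk3b by -0.13, -0.23 and -0.08, Cdk5 by -0.01 and Fyn by -0.04.

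Markers of choroid plexus, the epithelium that makes cerebrospinal fluid, separated the same arrays. Their summed level was 17.45 and 17.53 with 5 and 10 µM Aβ, 17.46 with scopolamine, and 11.62 and 12.32 with 2.5 and 3 mg/kg streptozotocin. All 5 listed markers were past 1.5-fold between Aβ and streptozotocin (14.5% of all genes). The same held for scopolamine against the mean of the other ICR arrays (11.9% of all genes). Oligodendrocyte markers, of the cells that make myelin, summed to 17.25 with 5 µM Aβ and 17.20 with scopolamine, and to 16.37 with 10 µM Aβ and 16.96 and 16.66 with 2.5 and 3 mg/kg streptozotocin. These 2 higher and 3 lower arrays are the same ones as for Mapt probe A_55_P2100155, but the order among the lower ones differed. The list was lowest with 10 µM Aβ and the probe with 3 mg/kg streptozotocin. Between the Aβ and the streptozotocin pair the oligodendrocyte list had 0 of 7 genes past 1.5-fold, with a median of -0.02. In cortex the list ran from 15.85 to 16.89 while the probe spanned 0.22, both lowest at 17 months. In 5xFAD the list had its highest transgenic sum, 17.56, and the probe its lowest transgenic value, 13.87. The part of either list in the Mapt probe's values was not tested. Cortex markers were past 1.5-fold lower with Aβ than with streptozotocin for 4 of 7 genes, beside 5.24% of all genes. Their summed levels were 11.94 and 11.98 against 12.33 and 12.13, and their part in the small Gsk3b, Cdk5r1 and Map1a differences was not tested.

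Comparisons of dose rested on 1 array against 1. With 10 against 5 µM Aβ, 1 of 19 probes passed 1.5-fold (15.3% of all probes), again Mapt probe A_55_P2100155, lower by -0.83 on the log2 scale at the higher dose. Oligodendrocyte markers were lower past 1.5-fold in the same comparison for 6 of 7 genes (6.84% of all genes), with a median of -0.90, and their part in it was not tested. With 3 against 2.5 mg/kg streptozotocin none of the 19 passed (16.4% of all probes), and that probe was again lower at the higher dose, by -0.45. Bright probes passed less often than all probes in both dose comparisons. Without their lowest 5% and highest 5%, they ran from -0.30 to 0.30 between Aβ doses. Between streptozotocin doses they ran from -0.32 to 0.29. The median size over the members was 0.18 and 0.12 in this order, beside 0.10 and 0.09 over bright probes and 0.16 and 0.14 over all. The array with 3 mg/kg streptozotocin gave the highest of the 5 ICR values for 12 of 19 member probes, beside 22.2% of all probes, and the 5 µM Aβ array gave the lowest for 9 of 19 (27.6% of all probes).

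On the scopolamine array, from mice given this muscarinic receptor blocker 30 minutes before sampling, the members lay close to the other ICR arrays. Those were sampled 14 days after intracerebroventricular injection, and no vehicle array was analysed here. Drug, route, surgery and time to sampling therefore cannot be told apart in this comparison. Against the mean of the other 4 ICR arrays 1 of 19 probes passed 1.5-fold (14.1% of all probes and 1.28% of the bright ones). Mapt probe A_55_P2100155 was 1.58-fold higher (log2 difference 0.66, software error 0.16), and without the 3 mg/kg streptozotocin array it was 0.46 higher. Oligodendrocyte markers had 2 of 7 genes past 1.5-fold higher with scopolamine (5.83% of all genes) and a median of 0.54, and their part in the Mapt difference was not tested. The other 18 probes ran from -0.25 to 0.17, and 14 of the 19 were smaller than the software error. The first 2 Mapt probes differed by 0.00 and -0.09, and Map2 by 0.01 and 0.00.

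In the ageing cortex no member passed 1.5-fold between the 2 older and the 2 younger arrays (0 of 19, against 12.3% of all probes and 1.79% of bright ones). The largest differences were in Map1b, Map1a and Fyn, and these 3 probes were also the ones without overlap between the age pairs (3 of 19, against 35.7% of all probes). Map1b probe A_52_P360330 read 11.21 and 11.48 at 1.5 and 4 months and 11.74 and 11.59 at 17 and 22 months, a difference of 0.32. Map1a probe A_55_P2157966 read 10.81 and 10.70, then 10.39 and 10.58, a difference of -0.27, and the second probe of each of these genes did not repeat the separation.

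Fyn, the Src-family kinase that binds and phosphorylates tau, was the only member whose values ran one way at every age. It read 9.62, 9.53, 9.42 and 9.27 at 1.5, 4, 17 and 22 months, so that the older pair differed from the younger by -0.23. Each step was below the software error of a difference between 2 arrays, 0.20, and 1 of 19 members compares with 7.69% of all probes that rose or fell at every age.

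The 17-month array gave the lowest of the 4 cortex values for 9 of 19 member probes, and for 31% of all probes. It also carried a summed choroid plexus signal of 15.60, against 7.25, 7.63 and 8.43 at 1.5, 4 and 22 months. Its summed oligodendrocyte level was the lowest of the 4, at 15.85 against 15.97, 16.89 and 16.52 in the same order. Of these markers 5 of 7 were past 1.5-fold higher at 22 than at 17 months, beside 6.59% of all genes. The part of both in the 17-month values was not tested.

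Across strains and regions between 4 and 7 of the 19 member probes passed 1.5-fold, beside 21.9%, 23.7% and 31.3% of all probes in the 3 comparisons. Strain, region, age, treatment, transgene and sex-linked signal differ between these sets and cannot be told apart. Map1b, the developmental MAP1 protein, gave the widest gap: probe A_52_P360330 read 13.85, 13.90, 13.78, 14.01 and 13.80 on the 5 ICR arrays, where the first 2 are 5 and 10 µM Aβ, the next 2 are 2.5 and 3 mg/kg streptozotocin and the last is scopolamine. It averaged 13.87 ± 0.09 (SD, n = 5 arrays) there, 11.45 ± 0.29 (SD, n = 3) in transgenic and 11.51 ± 0.23 (SD, n = 4) in cortex. Each SD is over arrays of different treatments, transgenes or ages, not over replicates. The ICR mean was 5.35-fold that of the transgenic hippocampus (log2 difference 2.42).

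The other Map1b probe, A_55_P1964193, did not carry this gap. It read 11.40, 11.66, 11.74, 11.92 and 11.44 in the same ICR order and 11.32, 11.26 and 11.39 in NCSTN, MAPT and 5xFAD, so the groups did not overlap but lay close. The 2 Map1b probes thus disagreed by 2.11 on the size of the ICR difference.

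Map2 and Map1a followed the same form. Map2 probe A_52_P22763 read 14.10, 14.20, 14.09, 14.21 and 14.16 in ICR hippocampus and between 13.14 and 13.50 on all 7 C57BL/6 arrays, and was 0.84 higher in ICR than in transgenic hippocampus. Map1a probe A_55_P2157966 read 11.29, 11.36, 11.08, 11.37 and 11.44 in ICR hippocampus and 10.37, 10.44 and 10.86 in NCSTN, MAPT and 5xFAD, a difference of 0.75. Both probes separated ICR from C57BL/6 without overlap, and for both genes the other probe differed by less.

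Stmn1, the tubulin-binding phosphoprotein that promotes microtubule disassembly, separated cortex from hippocampus with both of its probes. Probe A_55_P2043862 read 15.88, 16.05, 15.89 and 16.10 in cortex by age, and all 8 hippocampal arrays lay between 14.85 and 15.17. Probe A_55_P2068663 read 16.72, 16.84, 16.48 and 16.95 in cortex, 15.83, 15.76 and 15.47 in NCSTN, MAPT and 5xFAD, and between 14.48 and 14.79 in ICR hippocampus. The cortex lay above the transgenic hippocampus by 1.07 and 1.06 on the log2 scale, about the same for either probe, and above the ICR hippocampus by 0.96 and 2.13.

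Map4, the microtubule protein of many non-neuronal as well as neuronal cells, ran the other way. Its probe read 13.43, 13.74, 13.32 and 13.53 in cortex, 14.25, 14.35 and 14.07 in NCSTN, MAPT and 5xFAD, and 14.52, 14.25, 14.31, 14.30 and 14.15 in ICR hippocampus. No cortex value reached any hippocampal value, and the cortex was lower than transgenic hippocampus by -0.72 and lower than ICR hippocampus by -0.81 on the log2 scale, whereas the 2 hippocampal sets differed by 0.08.

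**Figure D2:**
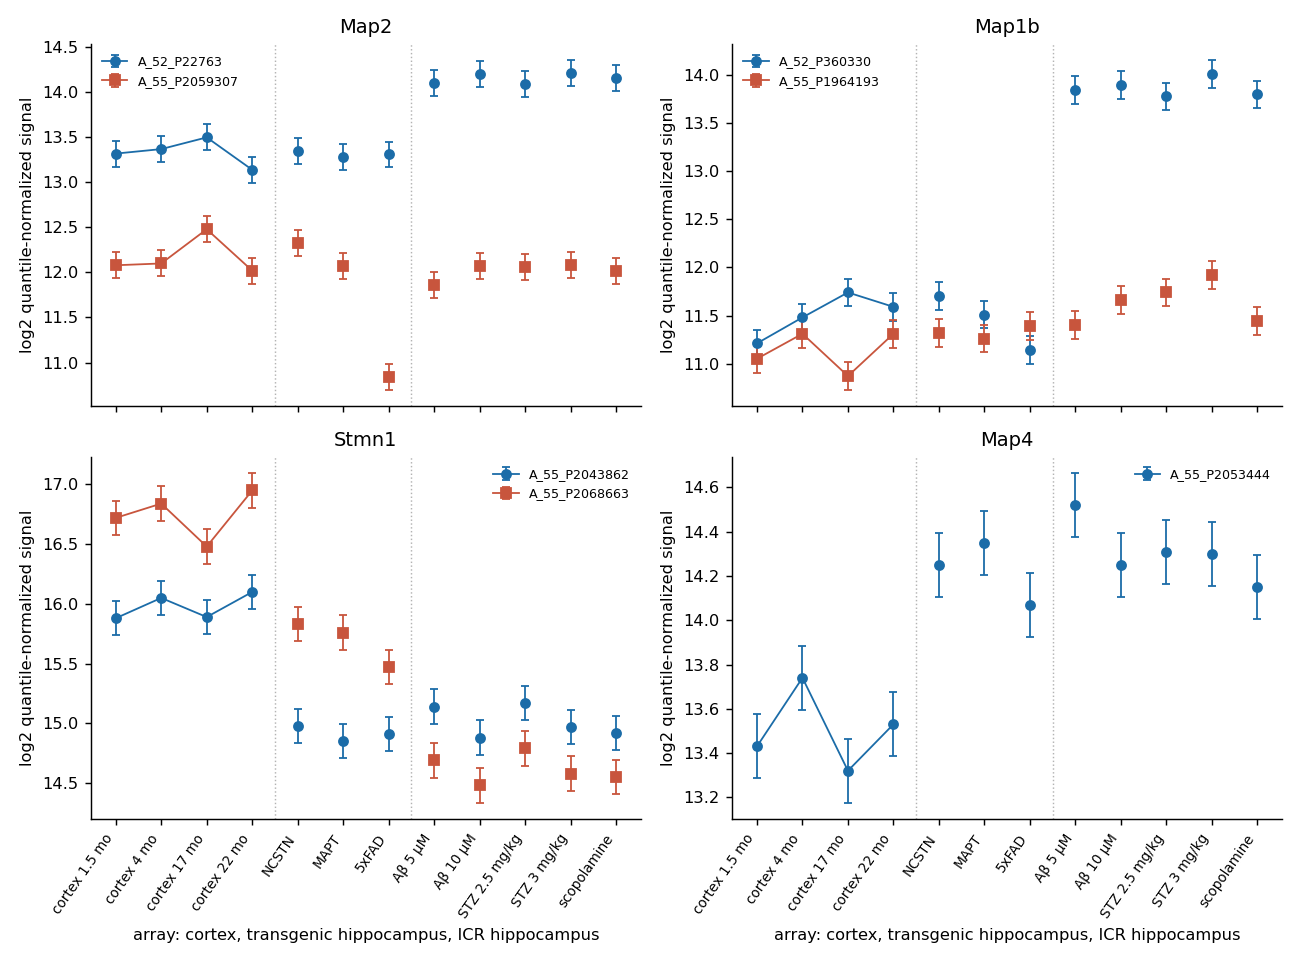
Log2 signal (y axis) of the Map2, Map1b, Stmn1 and Map4 probes on the 12 arrays (x axis), with lines joining only the cortex ages. One Map1b and one Map2 probe sit higher on all 5 ICR arrays, both Stmn1 probes sit highest in cortex, and Map4 sits lowest there.

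In counts, ICR against transgenic hippocampus had 5 of 19 member probes past 1.5-fold (21.9% of all probes), 3 of them higher and 2 lower in ICR. The lower pair were Stmn1 probe A_55_P2068663 at -1.07 and Mapt probe A_55_P2100155 at -0.59, and the Mapt values overlapped between the sets. Cortex against transgenic hippocampus had 4 of 19 (23.7% of all probes), which were both Stmn1 probes, Map4 and Cdk5r1 probe A_55_P2173183 at 0.59. Cortex against ICR hippocampus had 7 of 19 (31.3% of all probes). Groups without overlap numbered 7 of 19 (22.6% of all probes), 7 of 19 (28.8%) and 12 of 19 (35.2%) in the same order. These 3 comparisons share their arrays. The members' shares past 1.5-fold were near those of all probes, which include dimmer probes. Without their lowest 5% and highest 5%, the 11681 equally bright probes ran from -0.56 to 0.50 between ICR and transgenic hippocampus. The members' 5 of 19 was thus above the bright share there. For cortex the same limits were -0.70 and 0.67 against transgenic and -0.78 and 0.84 against ICR hippocampus. They lie past 1.5-fold, so the bright share cannot be placed beside the members' counts.

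Among the kinases and their activator, Cdk5r1 had the widest spread over the 12 arrays. Cdk5r1 probe A_55_P2173183 read 14.13, 14.02, 14.43 and 14.06 in cortex, 13.63, 13.80 and 13.29 in NCSTN, MAPT and 5xFAD, and 13.44, 13.69, 13.80, 13.85 and 13.68 in ICR hippocampus. Its cortex values all lay above its hippocampal values, and for the other Cdk5r1 probe too. The Cdk5 probe stayed within 0.56 and the Fyn probe within 0.44 over all 12 arrays, and the Gsk3b probes within 0.66, 0.85 and 0.74.

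**Figure D3:**
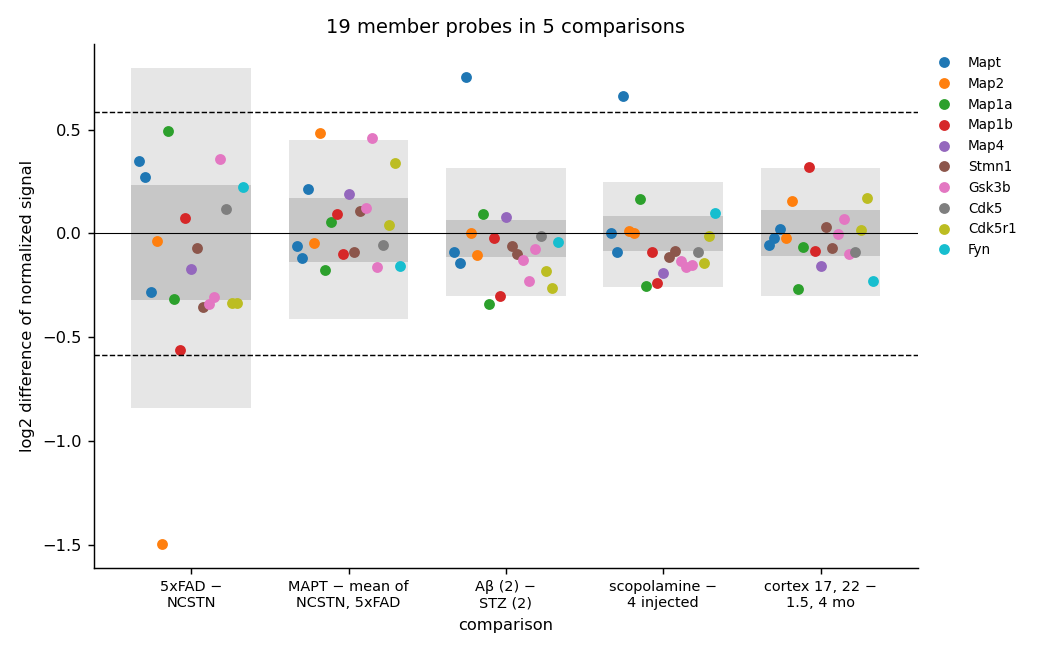
Log2 difference (y axis) of the 19 member probes in 5 comparisons (x axis), with grey bands for the middle 50% and 90% of the 11681 equally bright probes and dashed lines at 1.5-fold. One Map2 probe lies past the line in 5xFAD minus NCSTN and one Mapt probe in each of the ICR comparisons, and none does in the MAPT or cortex comparison.

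Agreement between probes of a gene could be read for the 7 genes with more than 1 probe, which form 11 pairs. Between 5xFAD and NCSTN 6 of 11 pairs disagreed by more than 1.5-fold, against 38% of all same-gene pairs and 21% of bright ones. They were the Map2 pair at 1.46, the Map1a pair at 0.81, 2 Gsk3b pairs at 0.70 and 0.66, the Map1b pair at 0.64 and a Mapt pair at 0.63. Between Aβ and streptozotocin 2 of 11 disagreed (14.1% of all pairs, 1.66% of bright ones), both through Mapt probe A_55_P2100155, and the same 2 did so for scopolamine (12.1% and 0.885%). In the MAPT comparison 1 Gsk3b pair disagreed (15.8% and 5.09%), and by cortex age none did (13.2% and 1.66%). Between ICR and transgenic hippocampus 4 of 11 did (23.6% and 9.24%), the widest being the Map1b pair described above.

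**Figure D4:**
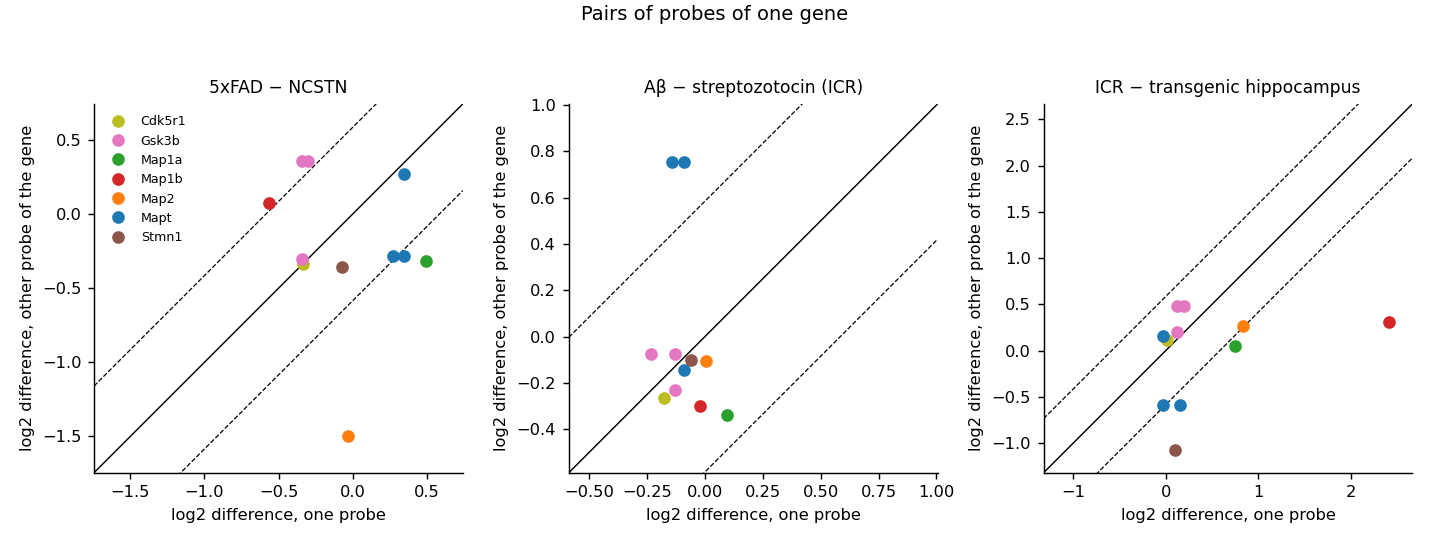
Log2 difference of one probe (x axis) against another probe of the same gene (y axis), for 5xFAD minus NCSTN, Aβ minus streptozotocin and ICR minus transgenic hippocampus, with dashed lines where the probes disagree by 1.5-fold. The Map2 pair in the first panel (gap 1.46) and the Map1b pair in the last (gap 2.11) lie farthest out.

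Within a set, the members were about as steady as other bright probes. The gap between the highest and the lowest array passed 1.5-fold for 0 of 19 probes in cortex (36.5% of all and 13.4% of bright probes), 2 of 19 in the transgenic set (42.9% and 23.7%) and 1 of 19 in the ICR set (41.9% and 10.7%). Their median gap was 0.35, 0.34 and 0.29 in these sets, beside 0.43, 0.50 and 0.47 for all probes and 0.30, 0.34 and 0.25 for the bright ones. The transgenic pair were Map2 A_55_P2059307 with a gap of 1.50 and Gsk3b A_55_P1981415 with 0.61, and the ICR one was Mapt A_55_P2100155, from 12.76 to 14.15.

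**Figure D5:**
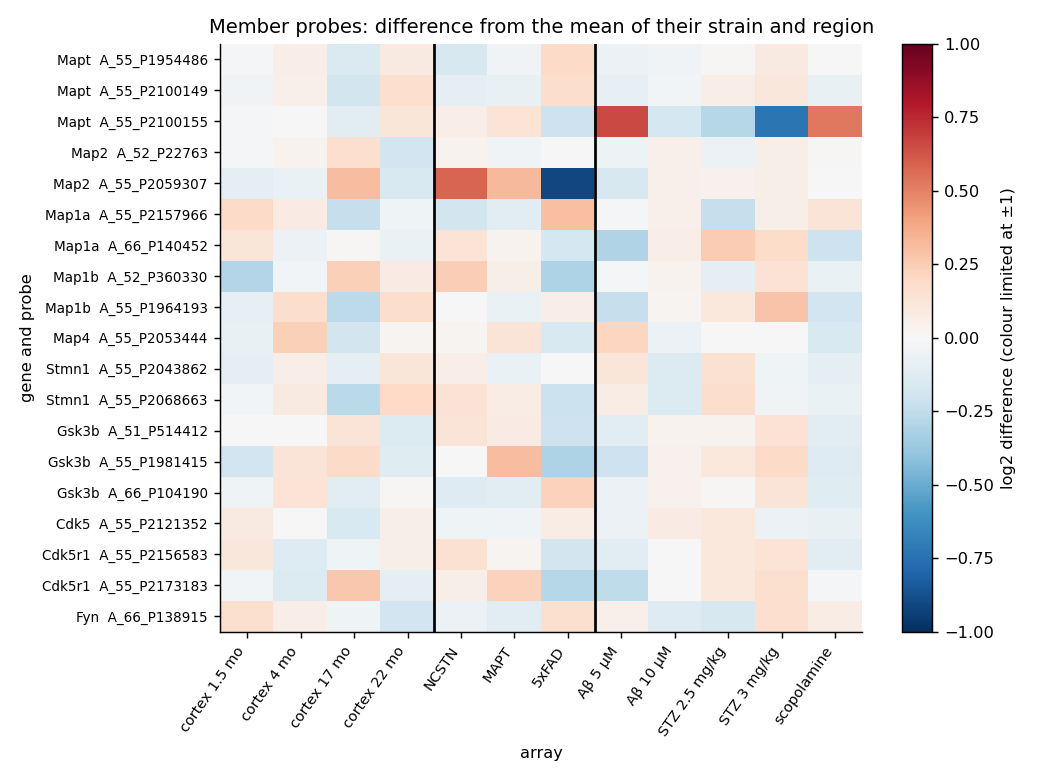
Log2 difference of each of the 19 member probes (rows) from its mean in the same strain and region (colour, from -1 to 1), for the 12 arrays (columns). The strongest colours are Map2 A_55_P2059307 in 5xFAD and Mapt A_55_P2100155 on the ICR arrays.

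Around the members, 147 other genes of the tau and microtubule system were taken as lists, of which 145 were measured. Between 5xFAD and NCSTN 7 were past 1.5-fold higher and 20 lower (18.6%), against 28.8% of all genes in either direction and 19.7% of bright probes. Other microtubule-associated proteins had 0 higher and 3 lower of 27, other tau kinases and activators 4 and 4 of 34, tau phosphatases 0 and 3 of 19, tubulins 2 and 2 of 14, tubulin-modifying and severing enzymes 0 and 3 of 15, axonal motors 0 and 2 of 15, and genes of tau turnover and binding 1 and 3 of 21.

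The higher ones were led by Ctsd, the lysosomal protease cathepsin D, at 14.37 in 5xFAD, 12.25 in NCSTN and 12.14 in MAPT. Tubb6, a beta-tubulin, read 9.74, 8.01 and 6.99 in the same order. Sgk1, a glucocorticoid-induced kinase that can phosphorylate tau, was 12.88 in 5xFAD and 11.63 in NCSTN. In 5xFAD Ctsd exceeded NCSTN by 2.12 and Tubb6 by 1.73 on the log2 scale, each a wider gap than that of any member probe.

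In the other comparisons few of the 145 passed 1.5-fold. The MAPT array had 1 higher and 5 lower (13.5% of genes), led by Tubb6 at -1.89, Ctsd at -1.17 and Tuba1c, which read 10.23 in MAPT beside 10.65 in NCSTN and 11.79 in 5xFAD. Most of these rested on the 5xFAD array, since against NCSTN alone 1 gene was higher and 1 lower (10.3% of genes), the lower one being Tubb6 at -1.02. Aβ against streptozotocin had 3 and 1 (14.5%), scopolamine 4 and 0 (11.9%) and older against younger cortex 1 and 0 (9.49%). Of the 145 genes 4.14% passed in the MAPT, 2.76% in the Aβ, 2.76% in the scopolamine and 0.69% in the cortex comparison. Among bright probes, counted by probe rather than by gene, 4.97%, 3.05%, 1.28% and 1.79% passed in the same order. Some of the listed genes, such as Dcx, were dimmer than these probes. The cortex gene was Fign, a microtubule-severing ATPase, at 6.43, 6.57, 7.46 and 7.41 by age.

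Tubulins carried the widest ICR difference. Tuba1c, an alpha-tubulin, read 12.29 and 12.60 with 5 and 10 µM Aβ, 8.98 and 9.71 with 2.5 and 3 mg/kg streptozotocin and 12.28 with scopolamine, so that it was 3.10 higher with Aβ than with streptozotocin. It stood high on the same 3 arrays as the choroid plexus markers, and the part of these in its level was not tested. Alpha-tubulin genes are close copies of each other, so which copy this probe reads is uncertain. Kif5b, a kinesin heavy chain that moves cargo along axons, read 6.42 and 6.56 with Aβ, 9.05 and 6.58 with 2.5 and 3 mg/kg streptozotocin and 8.91 with scopolamine, so its 2 streptozotocin arrays lay far apart. Scopolamine exceeded the other 4 ICR arrays by 1.76 for Kif5b, 1.39 for Tuba1c and 0.98 for Sgk1, and Tubb6 was 0.93 higher with Aβ than with streptozotocin.

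The genes whose pattern over the 12 arrays was most like that of Mapt probe A_55_P1954486, with each array taken relative to its own strain and region, were Haus4, Mpv17l and C230012O17Rik, at r = 0.96, 0.95 and 0.95 among 14009 genes. Of the member probes outside Mapt, Gsk3b A_66_P104190 was most like it at r = 0.84 and Map2 A_55_P2059307 most opposite at r = -0.83. The Gsk3b probes A_51_P514412 and A_55_P1981415 ran the other way at r = -0.60 and -0.34, and Map2 A_52_P22763 had r = -0.40. Without the 5xFAD array, over 11 arrays, the same 3 genes had r = 0.97, 0.91 and 0.88. The 2 extreme probes then had r = 0.66 and -0.62, the other Gsk3b probes -0.23 and 0.15, and the other Map2 probe -0.57. The points share 3 set means and 1 normalisation. Each of the 19 member probes had its own 3 likest genes at r from 0.83 to 0.99, picked as the highest among 14009. An r of this size is thus not particular to Mapt.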

How the data were processed

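Each of the 12 one-colour Agilent Mouse Whole Genome 44K arrays measured RNA pooled in equal amounts from 3 animals. The authors deposited the scanner's intensity values for each array and a table of processed intensity values, which per the methods were filtered at 1.4-fold over local background and quantile normalised. Its log scale and centring were not stated; its values ran linearly above 0, with the 5xFAD column and the ICR columns on distributions of their own, so it served only as an alternative within sets. Software versions for scanning were not given in the sources used here.

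From the scanner files the processed signal, already background-treated by the scanner software, was taken to log2. Control spots and spots with an outlier flag were left out (110 to 234 per array), spots of a probe were averaged, probes with foreground at least 1.4 times local background on all 12 arrays were kept (36520), and the arrays were quantile normalised. No spot was saturated. The median SD between repeated spots of a probe was 0.045 to 0.059 on the log2 scale, and with so few arrays precision is limited by their number. Symbols came from the transcript accession of a probe through a RefSeq gene table and were found for 69.8% of probes. R 4.3.3 with limma 3.58.1 (normexp), Python 3.11.15, numpy 2.4.6, pandas 2.3.3, scipy 1.17.1 and matplotlib 3.10.9 were used, and the scripts were tested on simulated data.

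With 1 array per group there was no test. Differences were taken within each strain and region and, apart from these, between the means of the strain and region sets. A call was a difference past 1.5-fold, and each count was set beside the same count over all probes. The member genes, the pathway lists and the marker lists were chosen with earlier results of these data known. All members were described, and from the pathway lists the 3 genes with the widest difference past 1.5-fold in each comparison among those well above background on all its arrays, plus the 3 genes most like Mapt, were named. Alternatives were other filters, 75th percentile scaling, quantile normalisation within sets, normexp with an offset of 50, the deposited table, the brightest probe per gene, thresholds of 0.32 on the log2 scale and of 2-fold, and leaving out each array.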

Additional observations from a re-analysis of the deposited data

How the results depend on the processing

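No single member probe past 1.5-fold changed direction under any alternative run, and 1577 of 1672 values of single probes stayed within the software error. The median difference over the members moved in 2 of the 93 cases run: from ICR minus transgenic hippocampus it was 0.27 under 75th percentile scaling, and from cortex minus ICR hippocampus 0.060 under normexp with an offset of 50. Counts past 1.5-fold moved more. For 5xFAD minus NCSTN the count was 2 under 75th percentile scaling, 0 with the brightest probe per gene and 9 past a lower threshold of 0.32 on the log2 scale, which 54.9% of all probes passed. For the MAPT array it was 3 past 0.32 (35.3% of all probes) and 0 to 2 with 1 array left out (2 without NCSTN). For Aβ minus streptozotocin it was 0 with the brightest probe, 0 at 2-fold (7.39% of all probes) and 2 past 0.32 (30.2% of all probes). It was 0 to 1 with 1 array left out (0 without 5 µM Aβ or without 3 mg/kg streptozotocin). For scopolamine it was 0 in the deposited table, with the brightest probe and at 2-fold (6.02% of all probes). It was 0 to 1 with 1 array left out (0 without 3 mg/kg streptozotocin). In the deposited table the Mapt probe A_55_P2100155 was 0.53 higher with scopolamine, where the median of all probes lay at -0.22, and that median lay at -0.20 for Aβ minus streptozotocin. The cause of these moves was not tested, other than the fewer probes or the other threshold itself. No share over all probes is given in this section for 75th percentile scaling, the deposited table, the brightest probe or an array left out. Whether the members moved apart from other probes cannot be judged from those counts.

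The following alternatives were chosen after seeing the data. At 2-fold 2 members were called in each of the 3 comparisons across strain and region (8.35%, 9.55% and 13.8% of all probes for ICR minus transgenic, cortex minus transgenic and cortex minus ICR), and past 0.32 on the log2 scale 8 in cortex minus transgenic (45.5%) and 12 in cortex minus ICR hippocampus (54%). With 1 array left out the counts were 4 to 6, 3 to 5 and 6 to 7 for ICR minus transgenic, cortex minus transgenic and cortex minus ICR. The number of members whose range passed 1.5-fold was 0 to 2 in the transgenic set with 1 array left out (1 without MAPT, 0 without 5xFAD), and in the ICR set 2 under 75th percentile scaling and 3 in the deposited table. The normexp alternative used the median spot signal, since the scanner files analysed hold no mean signal. No paired analysis was possible because each group has 1 array.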
